A study of Homo sapiens and Canis lupus familiaris with 27 samples.

Results

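The EGF receptor family and its ligands were examined as 9 genes: the receptors EGFR, ERBB2 and ERBB3, the ligands AREG, EREG, HBEGF, TGFA and BTC, and the feedback inhibitor ERRFI1. They were found by their symbol in the gene column of the deposited count tables, which listed 23708 genes for the human lines PC-3 and LNCaP and 16028 genes for the canine line CT1258. Of the 9 genes, 9 had a row in each human table and 6 in the canine table, which held no row for EGFR, AREG or TGFA. PC-3 is a human prostate adenocarcinoma line from a bone marrow metastasis, LNCaP a human line from a lymph node metastasis, and CT1258 a canine prostate adenocarcinoma line. Each is 1 established line grown in culture. Cells received 15 µM PDA-66, an indolylmaleimide, for 12 h or 24 h, and control cells received its solvent, 0.15% DMSO, for 24 h. The same DMSO samples served as control for both times, so the 12 h comparisons had no control of matched duration. Poly(A) RNA was sequenced from 3 samples per group, except that 2 PC-3 DMSO samples (replicates 2 and 3) were analysed, which gave 26 samples. The study excluded the remaining PC-3 DMSO sample as an outlier after a plot of the distances between samples. The PC-3 comparisons thus rest on the controls kept after that step. By the methods of the study the 3 samples of a group were biological replicates prepared independently, while the labels give only replicate numbers, so p-values measure the spread between these preparations of 1 line.

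EGFR and ERBB2 are receptor tyrosine kinases, whereas ERBB3 has little kinase activity of its own and signals by pairing with the others. Their ligands are made as membrane-anchored precursors that are released by shedding, bind EGFR or pair partners of it, and drive the MAP kinase and PI3 kinase cascades. ERRFI1 (also called MIG6) binds the kinase domain of active EGFR and shuts it down. In prostate carcinoma, signalling through this family is known as a growth input.

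The label of each line was checked against marker genes, with levels as CPM, the gene counts scaled to a common library total by TMM. In LNCaP controls the kallikrein KLK2, a luminal prostate gene, lay between 255 and 389 CPM and CDH1, the epithelial cadherin, between 752 and 784 CPM. In PC-3 controls KLK3 and KLK2 had 0 counts, and VIM, a mesenchymal filament gene, lay between 1784 and 2450.2 CPM. The epithelial genes were present there too: KRT8 lay between 161 and 195 CPM and KRT18 between 339 and 361 CPM. EPCAM lay between 12.0 and 12.6 CPM and CDH1 between 3.76 and 8.37 CPM. In CT1258 controls TMPRSS2 and EPCAM had 0 counts, KLK2 lay between 3.33 and 10.8 CPM and FOLH1 between 2.84 and 3.72 CPM, while LUM, a fibroblast matrix gene, lay between 262 and 322 CPM. The canine table held no row for KRT8, KRT18, KRT5, CDH1 or VIM, so whether this line expressed them could not be read. Of the leukocyte and endothelial markers, CDH5 had 0 counts in the PC-3 and LNCaP controls and PTPRC at most 8 counts in any control, whereas PECAM1 lay between 12.8 and 18.5 CPM in PC-3 controls. In CT1258, KLK2 had 67 to 218 counts in the controls and 0 counts in all 6 PDA-66 samples. It was the only gene of that line with at least 50 counts in every control and 0 in every PDA-66 sample. In PC-3 and LNCaP 0 genes had this pattern. Whether this bears on the other results of the line was not tested. Library totals lay from 14650839 to 18091755 counts for PC-3, from 11923105 to 14741883 for LNCaP and from 7203534 to 20976950 for CT1258, where the mean control total was 2.64 times the mean treated total. In LNCaP, 12 h replicate 2 stood apart: a chi-square test of its counts against those of replicates 1 and 3 gave 203 and 159 per gene, against 7.06 between replicates 1 and 3. The PC-3 controls differed from each other by 33.1 per gene on this measure, against 1.88 to 4.38 among the 12 h samples, and CT1258 DMSO replicate 2 differed from the other controls of its line by 48.9 and 49.1, against 3.74 between those. Where leaving out one of these libraries ended a call or moved a called value by over 1.5 times, the value without it is given.

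The start regions of the genes that moved in PC-3, and of HBEGF, whose responses differed between the lines, are shown here. The 250 bases before the RefSeq start of each gene came from RefSeq (GRCh38.p14), where 8 of the 9 genes had an entry (none for ERBB3), and each was placed on GRCh37, the assembly of the human count tables, by exact match. The gene spans given further on come from the GRCh37 annotation, whose starts can differ: the TGFA window lies inside the span of TGFA there, and the other 4 windows end at the base next to their span. The capitals mark matches, on either strand, to the GC box GGGCGG, a motif of SP/KLF factors, or to the CCAAT box CCAAT. The sequences read 5′ to 3′ on the strand of the gene.

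EGFR (chr7:55086460-55086709, plus strand): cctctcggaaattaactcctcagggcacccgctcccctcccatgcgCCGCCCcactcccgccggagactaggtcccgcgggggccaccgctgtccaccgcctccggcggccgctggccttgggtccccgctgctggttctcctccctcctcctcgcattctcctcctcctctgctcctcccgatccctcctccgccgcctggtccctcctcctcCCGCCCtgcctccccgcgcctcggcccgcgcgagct

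TGFA (chr2:70780959-70781208, minus strand): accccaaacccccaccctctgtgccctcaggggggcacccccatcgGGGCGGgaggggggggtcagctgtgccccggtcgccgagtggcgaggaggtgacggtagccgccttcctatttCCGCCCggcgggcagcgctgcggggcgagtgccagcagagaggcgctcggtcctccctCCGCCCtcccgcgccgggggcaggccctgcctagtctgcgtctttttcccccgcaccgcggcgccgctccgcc

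ERRFI1 (chr1:8086370-8086619, minus strand): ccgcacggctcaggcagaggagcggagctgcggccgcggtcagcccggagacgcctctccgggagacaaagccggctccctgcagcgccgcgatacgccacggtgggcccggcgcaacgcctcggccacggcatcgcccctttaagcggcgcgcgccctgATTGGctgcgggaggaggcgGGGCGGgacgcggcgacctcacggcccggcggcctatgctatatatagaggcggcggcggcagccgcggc

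HBEGF (chr5:139726189-139726438, minus strand): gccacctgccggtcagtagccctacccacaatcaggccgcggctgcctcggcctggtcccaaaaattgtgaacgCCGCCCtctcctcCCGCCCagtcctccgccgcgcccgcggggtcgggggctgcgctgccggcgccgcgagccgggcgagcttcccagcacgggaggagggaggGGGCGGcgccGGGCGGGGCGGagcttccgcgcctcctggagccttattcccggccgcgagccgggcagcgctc

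BTC (chr4:75719734-75719983, minus strand): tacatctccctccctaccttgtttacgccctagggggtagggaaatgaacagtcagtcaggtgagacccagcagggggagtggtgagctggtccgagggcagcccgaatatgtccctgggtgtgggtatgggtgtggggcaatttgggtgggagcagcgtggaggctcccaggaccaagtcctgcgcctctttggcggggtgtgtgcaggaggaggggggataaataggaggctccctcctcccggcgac

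EGFR held 2 GC boxes, TGFA 3, ERRFI1 1 and HBEGF 5, of which the last 2 overlapped by 1 base, while BTC held none. Of 27326 promoters of this length, 42.2% held at least 1 GC box, so these matches are common. ERRFI1 also held 1 CCAAT box, found in 33% of promoters. None of the 5 sequences matched the AP-1 site TGANTCA (6.57% of promoters), the cyclic AMP response element TGACGTCA (1.75%) or the TATA box TATAAA (11.2%). Of the genes not printed, AREG held 1 TGACGTCA, 1 TATAAA and 1 GC box, EREG 1 TATAAA and 2 CCAAT boxes, and ERBB2 1 AP-1 match and 1 CCAAT box. These matches are letters in a window and were not tested as binding sites.

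On GRCh37 EGFR lies at chr7:55086710-55279321, ERBB2 at chr17:37844167-37886679, ERBB3 at chr12:56470583-56497289, TGFA at chr2:70674416-70781325, HBEGF at chr5:139712428-139726188 and ERRFI1 at chr1:8064464-8086369. The ligand genes EREG (chr4:75230862-75254466), AREG (chr4:75310853-75320722) and BTC (chr4:75669969-75719733) form a cluster on chromosome 4. The same cluster holds AREGB (chr4:75480629-75490486), a copy whose transcript differed from that of AREG in 1 of 1234 aligned bases (99.9% identity), and the AREG start region matched the genome at 2 places. AREGB had no row in the human tables, and how reads shared by the copies were counted was not stated, so AREG counts are uncertain. Exons of genes on the opposite strand covered 1.17% of the exon bases of EGFR (EGFR-AS1), 5.53% of those of ERBB2 (MIEN1) and 3.71% of those of ERRFI1. Whether strand was used in counting was not stated, so reads there cannot be told apart.

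The levels of the genes per transcript length differed between the human lines before treatment. In PC-3 controls the order of mean CPM per kb of the canonical transcript was ERRFI1 (168), HBEGF (15.8), TGFA (9.66), ERBB2 (7.39), EGFR (2.79), ERBB3 (1.66), BTC (1.62), AREG (0.871) and EREG (0.488). Among these, EGFR, ERBB3 and BTC overlapped between the 2 samples, and so did AREG and EREG. In LNCaP controls the order was ERBB2 (57.4), ERRFI1 (36.8), ERBB3 (33.5), EGFR (7.34), HBEGF (5.03) and TGFA (0.919), and ERRFI1 and ERBB3 overlapped. AREG, EREG and BTC had between 0 and 4 counts in each LNCaP control. ERRFI1 thus stood first or second in both lines, with the ligands HBEGF and TGFA next in PC-3 and the receptors ERBB2 and ERBB3 beside it in LNCaP.

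**Figure D1:**
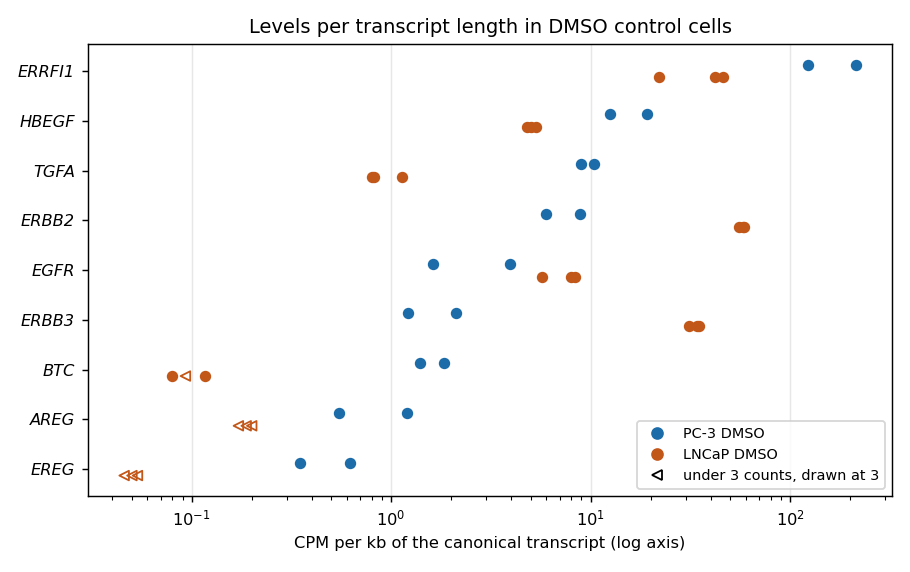
Levels of the 9 genes in DMSO controls of PC-3 and LNCaP, as CPM per kb of the canonical transcript on a log axis. Each point is 1 sample, and open triangles stand for samples with under 3 counts, drawn at the level of 3 counts. ERBB2 and ERBB3 lie higher in LNCaP, and HBEGF, TGFA, ERRFI1 and the low ligands higher in PC-3.

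In a fit of both human tables, 8 of 9 members differed between untreated PC-3 and LNCaP at an adjusted p under 0.001 (edgeR quasi-likelihood test, Benjamini-Hochberg adjustment over all genes tested, used throughout), against 40.8% of 15018 genes. Among the 8, AREG, EREG and BTC had too few counts to be tested in LNCaP alone and passed the count filter only through PC-3. ERBB3 had 11.8 and 6.84 CPM in the PC-3 controls and 175, 197 and 192 CPM in the LNCaP controls, a difference of -4.31 on the log2 scale (SE 0.21, edgeR adjusted p = 1.8e-11). ERBB2, the partner that ERBB3 pairs with most readily, had 40.2 and 27.1 CPM against 264, 252 and 268 CPM (log2 difference -2.93, SE 0.33, edgeR adjusted p = 6.19e-07). No PC-3 value of these receptors reached a LNCaP value.

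The ligands ran the other way. TGFA had 42.8 and 36.7 CPM in PC-3 controls and 4.66, 3.37 and 3.32 CPM in LNCaP controls (log2 difference 3.41, SE 0.22, edgeR adjusted p = 6.68e-10). HBEGF had 29.6 and 45.0 CPM against 11.3, 12.5 and 11.8 CPM (log2 difference 1.68, SE 0.17, edgeR adjusted p = 2.32e-07). The low ligands were called higher in PC-3 as well. Since they entered the fit through that line, these calls are no separate support, and their counts are a description. EREG had 67 counts in the PC-3 controls and 0 in the LNCaP controls, which makes it at least 29.5-fold higher against a floor of 3 counts over the group. BTC had 128 against 7 counts, a CPM ratio of 24.2 (95% interval 11.4 to 61.3, exact, counting error only), and AREG 32 against 4 counts, a ratio of 10.6 (95% interval 3.75 to 41.2). The AREG call was lost without PC-3 DMSO replicate 3 (edgeR adjusted p = 0.00507), without LNCaP DMSO replicate 2 (0.00105) and without LNCaP DMSO replicate 3 (0.00116).

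ERRFI1 had 379 and 662 CPM in PC-3 controls and 67.9, 143 and 131 CPM in LNCaP controls (log2 difference 2.22, SE 0.30, edgeR adjusted p = 7.17e-06). EGFR was the member not called by the edgeR test. It had 39.2 and 16.0 CPM in PC-3 and 56.8, 78.7 and 82.7 CPM in LNCaP (log2 difference -1.37, SE 0.34, edgeR adjusted p = 0.00215), whereas DESeq2 called it (-1.35, adjusted p = 0.000179). The PC-3 control values of EGFR lay far apart, and the difference was -2.16 and called without PC-3 DMSO replicate 2 (edgeR adjusted p = 0.000267) and -0.86 without replicate 3. It was also called without LNCaP 12 h replicate 2 (-1.37, edgeR adjusted p = 3.19e-05).

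PDA-66 was followed by changes in 5 of 9 members in PC-3 after 12 h: EGFR, TGFA and ERRFI1 rose, and ERBB3 and BTC fell. The share of all 13777 genes tested that were called in this comparison was 27.6%. Leaving out 1 sample gave 1 called member without 12 h replicate 3, 2 without the 12 h sample labelled P12-2, 3 without P12-1 and 4 in the other 5 fits. EGFR, the main receptor of the family, had 39.2 and 16.0 CPM in the DMSO controls and 105, 123 and 118 CPM at 12 h, so the lowest treated sample lay above the highest control. Its log2 fold change was 2.06 (SE 0.25, 4.17-fold, edgeR adjusted p = 1.63e-05). The size depended on which control was used: it was 2.85 without DMSO replicate 2 and 1.56 without DMSO replicate 3, and it was called in each fit that left out 1 sample (highest edgeR adjusted p = 0.00015).

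TGFA, a ligand of EGFR, had 42.8 and 36.7 CPM in the controls and 62.5, 62.5 and 65.1 CPM at 12 h, with no overlap (log2 fold change 0.67, SE 0.10, edgeR adjusted p = 0.00012). Leaving out 12 h replicate 3 gave 0.65 and an edgeR adjusted p of 0.00112. ERRFI1, the inhibitor of EGFR, had 379 and 662 CPM in the controls and 1019.7, 986 and 982 CPM at 12 h (log2 fold change 0.94, SE 0.17, 1.91-fold, edgeR adjusted p = 0.000499). The treated ERRFI1 values lay close together while the controls differed widely, and the log2 fold change was 0.60 without DMSO replicate 2 and 1.40 without DMSO replicate 3. Its call, close to the threshold, was lost in 6 of 8 fits that left out 1 sample, those without any 1 of the PDA-66 samples, with values between 0.92 and 0.95 and edgeR adjusted p between 0.00105 and 0.00196.

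ERBB3 moved opposite to EGFR. It had 11.8 and 6.84 CPM in the controls and 4.19, 3.85 and 3.55 CPM at 12 h (log2 fold change -1.27, SE 0.21, edgeR adjusted p = 0.000214), with no overlap. The value was -0.81 without DMSO replicate 2 (edgeR adjusted p = 0.00186) and -1.60 without DMSO replicate 3, and the call was also lost without 12 h replicate 3 (-1.21, edgeR adjusted p = 0.00147) or the 12 h sample labelled P12-2 (-1.25, edgeR adjusted p = 0.00115). BTC, a ligand that binds EGFR and ERBB4, had 55 and 73 counts in the controls and 28, 27 and 31 counts at 12 h. In CPM these were 3.71 and 4.90 against 1.54, 1.76 and 1.84 (log2 fold change -1.33, SE 0.23, edgeR adjusted p = 0.000273), and its call was lost without DMSO replicate 3 (-1.11, edgeR adjusted p = 0.00365), without 12 h replicate 3 (-1.38, 0.00121), without P12-1 (-1.25, 0.00192) and without P12-2 (-1.34, 0.00141).

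The other 4 members were not called in PC-3 at 12 h. ERBB2 had 40.2 and 27.1 CPM against 39.2, 44.5 and 49.2 CPM (log2 fold change 0.39, SE 0.17, edgeR adjusted p = 0.0616). HBEGF had 29.6 and 45.0 CPM against 40.2, 43.9 and 44.1 CPM (0.20, SE 0.15, edgeR adjusted p = 0.278), and its sign turned without DMSO replicate 2 (-0.07). AREG lay between 0.675 and 1.72 CPM over control and 12 h samples and EREG between 1.57 and 2.88 CPM, with log2 fold changes of 0.58 and -0.21.

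**Figure D2:**
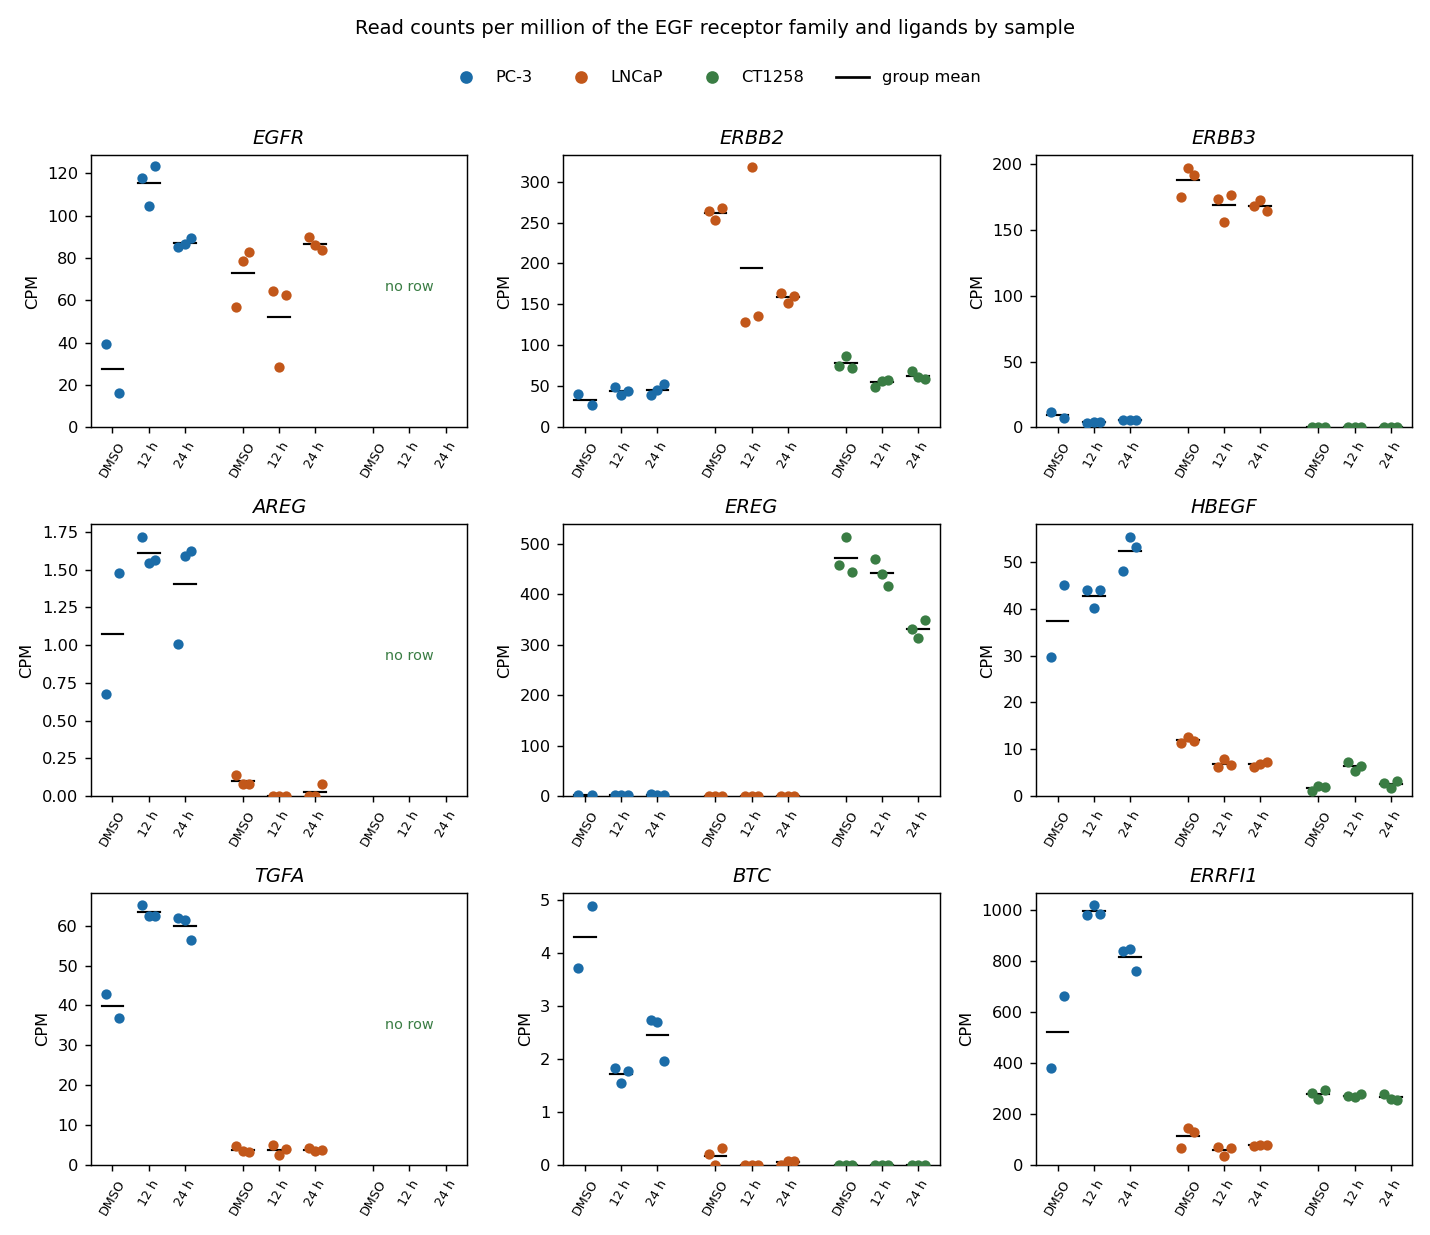
CPM of each gene in every sample, with 1 panel per gene and its own axis from 0, grouped by cell line and, within it, by DMSO, 12 h and 24 h of PDA-66. Points are samples, black lines are group means, and "no row" marks genes that the canine table did not list. EGFR and TGFA lie above both controls in every treated PC-3 sample, ERBB2 in LNCaP has 1 high value of 318 CPM at 12 h, and EREG is high in CT1258.

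After 24 h, 2 of 9 members were called in PC-3, EGFR and TGFA (1 to 4 when 1 sample was left out), against 19.3% of genes, and 7 of 9 had an adjusted p under 0.05, against 49.9% of genes. EGFR had 85.0, 86.8 and 89.4 CPM (log2 fold change 1.66, SE 0.25, 3.15-fold, edgeR adjusted p = 0.000137). It was 2.45 without DMSO replicate 2 and 1.17 without DMSO replicate 3, and it lost its call without 24 h replicate 3 (1.64, edgeR adjusted p = 0.00129). TGFA had 61.8, 61.5 and 56.3 CPM (0.59, SE 0.10, edgeR adjusted p = 0.000466). All 3 values exceeded both controls, but the call was lost in 6 of 8 fits that left out 1 sample: DMSO replicate 3 (0.50, edgeR adjusted p = 0.0022), 12 h replicate 3 (0.59), P12-1 (0.59), P12-2 (0.61), 24 h replicate 1 (0.57) and 24 h replicate 2 (0.57).

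The 5 members under 0.05 only were HBEGF and ERBB2, higher, ERRFI1, higher, and ERBB3 and BTC, lower. ERRFI1 had 839, 847 and 759.8 CPM, all above the controls (log2 fold change 0.65, SE 0.17, edgeR adjusted p = 0.00723), and was 0.31 without DMSO replicate 2 but 1.12 and called without DMSO replicate 3 (edgeR adjusted p = 1.6e-06). On all samples DESeq2 (0.65, adjusted p = 0.000484) and limma voom (0.74, adjusted p = 0.000202) called ERRFI1 as well. HBEGF had 48.1, 55.4 and 53.2 CPM against 29.6 and 45.0 CPM (0.49, SE 0.15, edgeR adjusted p = 0.0157), with 0.22 without DMSO replicate 2 and 0.84, called, without DMSO replicate 3 (0.000128). ERBB3 had 5.87, 5.32 and 5.41 CPM (-0.75, SE 0.20, edgeR adjusted p = 0.00818), with -0.30 without DMSO replicate 2 and -1.07, called, without DMSO replicate 3 (0.000145).

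BTC had 2.73, 2.69 and 1.96 CPM (-0.80, SE 0.22, edgeR adjusted p = 0.00843), and it was -0.57 without DMSO replicate 3 (edgeR adjusted p = 0.0844) and -0.97 without DMSO replicate 2. ERBB2 had 39.5, 45.1 and 53.3 CPM (0.45, SE 0.17, edgeR adjusted p = 0.0419), with 0.21 without DMSO replicate 3 (edgeR adjusted p = 0.307) and 0.77 without DMSO replicate 2. Between 12 h and 24 h, 0 of 9 members were called by the edgeR test, against 1.41% of genes. An unadjusted p under 0.05 was reached by 4 members, beside 3377 of 13777 genes. DESeq2 also called 0, whereas limma voom and the edgeR exact test on the 2 groups each called 2. All 3 EGFR values at 24 h lay under the 3 at 12 h (log2 difference -0.40, SE 0.20, edgeR adjusted p = 0.24), and it was among the called by limma voom (adjusted p = 3.69e-05) and by the edgeR exact test (2.04e-05).

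In LNCaP, 6 of 9 members had enough counts to be tested, and 0 were called after 12 h by the edgeR test, against 0.0076% of genes. The study, with an earlier edgeR version at the same threshold, reported many more called genes in LNCaP at both times. The reason for this gap was not tested. An unadjusted p under 0.05 was reached by 2 members, beside 3950 of 13156 genes. In counts simulated for 12 h with the spread of each line, the test called 1% of genes changed by 1 on the log2 scale in LNCaP. It called 88% of such genes in PC-3 and 99% in CT1258. Far fewer genes were changed in the simulation than were called in PC-3 and CT1258. All of them lay above a minimum level that TGFA in LNCaP controls and HBEGF in CT1258 controls did not reach. The percentages thus hold for that setting only. The 0 calls in LNCaP therefore do not show that the members stayed unchanged. At an adjusted p under 0.05 the number was 1, HBEGF, against 9.14% of genes. HBEGF, a ligand of EGFR and ERBB4, had 11.3, 12.5 and 11.8 CPM in the controls and 6.31, 7.99 and 6.53 CPM at 12 h (log2 fold change -0.77, SE 0.17, edgeR adjusted p = 0.0253). At 24 h it had 6.10, 6.93 and 7.28 CPM (-0.81, SE 0.17, edgeR adjusted p = 0.0407), again without overlap. In the fits that left out 1 sample the value lay between -0.88 and -0.71 at 12 h and between -0.86 and -0.74 at 24 h, with edgeR adjusted p of up to 0.0892 and 0.192.

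ERBB2, the most abundant receptor of LNCaP, had 264, 252 and 268 CPM in the controls and 129, 318 and 136 CPM at 12 h. The high value belongs to replicate 2, the library that stood apart, in which EGFR (28.6 CPM against 64.6 and 62.8) and ERRFI1 (34.1 CPM against 71.9 and 67.1) were lower than in the other 12 h samples. With all samples the log2 fold change of ERBB2 was -0.43 (SE 0.31, edgeR adjusted p = 0.366), and without this library it was -0.97 and called (edgeR adjusted p = 0.000371). At 24 h ERBB2 had 163, 151 and 161 CPM, all under every control (-0.72, SE 0.31, edgeR adjusted p = 0.227), and it was called without 12 h replicate 2 (-0.72, edgeR adjusted p = 0.00066).

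ERRFI1 had 67.9, 143 and 131 CPM in the LNCaP controls and 71.9, 34.1 and 67.1 CPM at 12 h (-0.98, SE 0.32, edgeR adjusted p = 0.0861), and the groups overlapped through control replicate 1. EGFR had a 12 h value of -0.48 (SE 0.29, edgeR adjusted p = 0.28), and of -0.19 without replicate 2 (edgeR adjusted p = 0.359). With 56.8, 78.7 and 82.7 CPM in the controls, it had 89.9, 86.1 and 83.6 CPM at 24 h (0.25, SE 0.29, edgeR adjusted p = 0.699). ERBB3 stayed between 156 and 197 CPM and TGFA between 2.47 and 5.05 CPM in all LNCaP samples. Their log2 fold changes lay between -0.16 and 0.02, with standard errors of 0.13 and 0.28. AREG, EREG and BTC had at most 4 counts in any LNCaP sample, so changes in them were not detectable at this depth.

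At 24 h, 0 of 6 LNCaP members were called by the edgeR test, against 0% of 13156 genes. An adjusted p under 0.05 was reached by 1 member, against 2.92% of genes, and an unadjusted p under 0.05 by 2, beside 2599 genes. DESeq2 called 0 members at either time. Limma voom with quality weights, which lowers the weight of libraries that stand apart, called 3 at 12 h, all lower (ERBB2 -0.95, HBEGF -0.87 and ERRFI1 -0.83). At 24 h it called 2 (ERBB2 -0.72 and HBEGF -0.80), and the edgeR exact test called the same pair. The shares above belong to the edgeR quasi-likelihood test. Those of limma voom and the exact test over all genes are not given, so their counts cannot be set against a background. Replicates spread more widely in this line, with an edgeR common coefficient of variation of 0.24 for LNCaP beside 0.0971 for PC-3 and 0.1 for CT1258. Between the times, 0 of 6 were called by edgeR, DESeq2 and limma voom (0% of genes in edgeR). In edgeR, 1 had an unadjusted p under 0.05, beside 837 of 13156 genes.

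**Figure D3:**
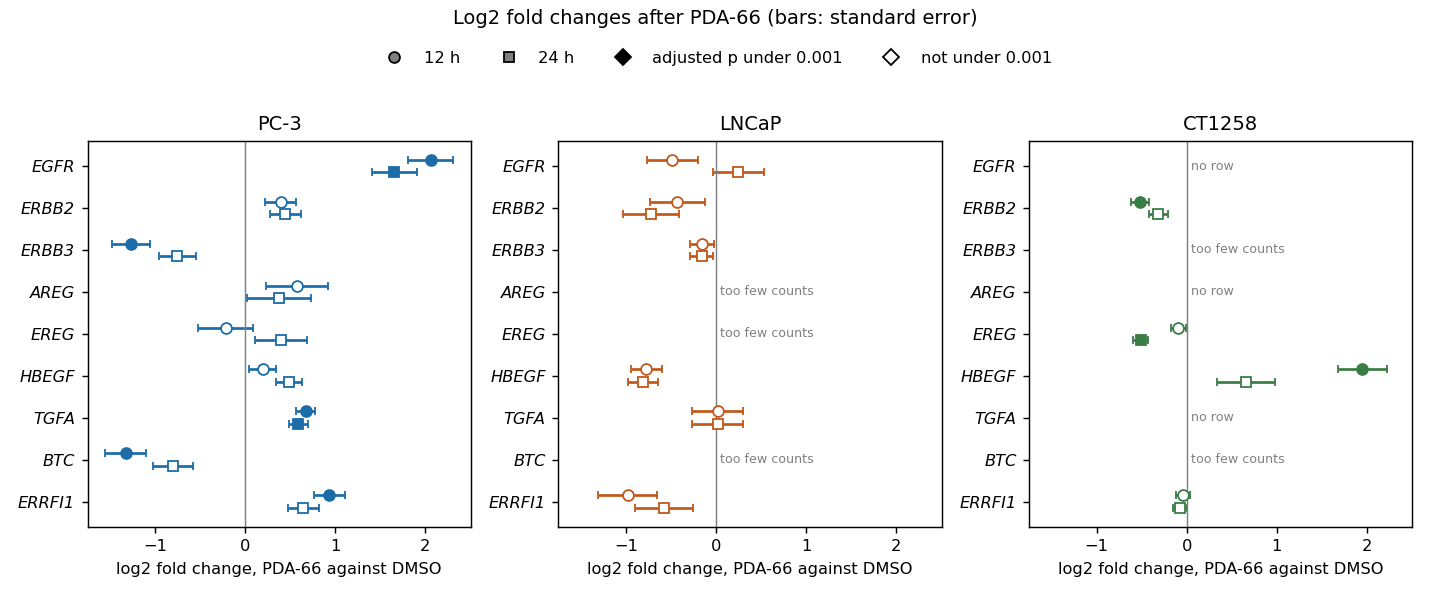
Log2 fold changes of PDA-66 against DMSO with standard errors for the 9 genes in each line, at 12 h (circles) and 24 h (squares), filled where the edgeR adjusted p was under 0.001. In PC-3 EGFR, TGFA and ERRFI1 lie right of 0 and ERBB3 and BTC left of it, in LNCaP no symbol is filled, and in CT1258 HBEGF is at 1.95 at 12 h.

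In CT1258, 4 of the 6 members listed could be tested. ERBB3 had 1 to 9 counts per sample and BTC 0 in all 9 samples, which allows up to 3 counts per library. After 12 h, 2 of 4 were called, HBEGF higher and ERBB2 lower, against 44.3% of 9886 genes. HBEGF had 0.992, 2.04 and 1.89 CPM in the controls and 7.33, 5.40 and 6.42 CPM at 12 h (log2 fold change 1.95, SE 0.27, 3.86-fold, edgeR adjusted p = 2.06e-05). The counts behind this were low, 20 to 41 in the controls and 45 to 55 at 12 h, and in the fits that left out 1 sample the value lay between 1.69 and 2.13, called in all 9. At 24 h HBEGF was back at 2.82, 1.70 and 3.26 CPM, overlapping the controls (0.66, SE 0.32, edgeR adjusted p = 0.0852), and it was lower at 24 h than at 12 h (-1.29, SE 0.29, edgeR adjusted p = 0.00805).

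ERBB2 had 75.3, 87.0 and 72.8 CPM in the CT1258 controls, 49.0, 56.8 and 58.3 CPM at 12 h and 69.0, 61.0 and 59.1 CPM at 24 h. It was lower at 12 h (-0.52, SE 0.10, edgeR adjusted p = 0.000517) and at 24 h had a value of -0.31 (SE 0.10, edgeR adjusted p = 0.0168), without overlap at either time. Without DMSO replicate 2 the values were -0.44 (edgeR adjusted p = 5.12e-05) and -0.24 (0.0126). Its 12 h call was lost without 12 h replicate 1 (-0.45, edgeR adjusted p = 0.00496), 12 h replicate 2 (-0.55, 0.00221), 12 h replicate 3 (-0.57, 0.00138) or 24 h replicate 2 (-0.52, 0.00114).

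After 24 h, 1 of 4 was called, EREG, against 33.8% of genes, and 2 of 4 had an adjusted p under 0.05, against 62.1% of genes. EREG, a ligand of EGFR and ERBB4, stood at 459, 514 and 444 CPM in the CT1258 controls, 471, 441 and 417 CPM at 12 h and 331, 313 and 349 CPM at 24 h. It had a value of -0.09 at 12 h (SE 0.09, edgeR adjusted p = 0.348) and fell at 24 h (-0.51, SE 0.09, edgeR adjusted p = 0.000161), when all 3 samples lay under every other sample. The call was lost without 24 h replicate 1 (-0.51, edgeR adjusted p = 0.00108) or 24 h replicate 2 (-0.47, 0.00191), and the value was -0.45 without DMSO replicate 2 (edgeR adjusted p = 5.26e-06). Between 12 h and 24 h, 0 of 4 members were called by the edgeR test, against 2.13% of genes. An edgeR adjusted p under 0.05 was reached by 2 (EREG -0.42, 0.00457, and HBEGF), against 19.3% of genes. The same 2 had an unadjusted p under 0.05, beside 3214 of 9886 genes. DESeq2 called 1 of them, and limma voom and the edgeR exact test called 2. Without DMSO replicate 2 the edgeR test called both, EREG (-0.42, edgeR adjusted p = 2.51e-05) and HBEGF (-1.29, 0.00063).

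ERRFI1 in CT1258 showed the smallest movement of the tested members in that line, with 259 to 294 CPM in the controls, 265 to 280.0 CPM at 12 h and 256 to 278 CPM at 24 h. Its log2 fold changes were -0.04 and -0.08 (SE 0.08 for both, edgeR adjusted p = 0.661 and 0.417). Thinning the CT1258 control counts to the depth of the treated samples left the number of members called at 2, 1 and 0 in the 3 comparisons of the line.

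Whether the responses differed between the lines was tested on 14436 symbols that the 3 tables shared, of which 11736 were tested, including 6 of the 9 members. Of these, BTC had 0 counts in CT1258 and EREG at most 1 count per LNCaP sample, so their differences with those lines are not given. ERBB3 had 1 to 9 counts per CT1258 sample and BTC at most 4 per LNCaP sample. The counts out of 6 thus include members that could hardly be called in those pairs. At 12 h, 1 of 6 differed between PC-3 and LNCaP (3.57% of genes), 1 between PC-3 and CT1258 (9.33%) and 1 between LNCaP and CT1258 (12.8%). The first was ERRFI1, which rose in PC-3 and had lower values in LNCaP (difference of log2 fold changes 1.94, SE 0.36, edgeR adjusted p = 0.000559). In a fit of the human tables alone the difference was 1.96 and no longer called (edgeR adjusted p = 0.00612). It also lost its call in 8 of 26 fits that left out 1 sample, the lowest value being 1.57 without PC-3 DMSO replicate 2 (edgeR adjusted p = 0.00795). The 7 others were PC-3 12 h replicate 3 (1.89), P12-1 (1.87) and P12-2 (1.89), PC-3 24 h replicate 2 (1.88), LNCaP DMSO replicates 2 (1.73) and 3 (1.81) and LNCaP 24 h replicate 3 (1.88).

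The others were HBEGF, whose 12 h change in CT1258 exceeded that in LNCaP (difference LNCaP minus CT1258 -2.78, SE 0.31, edgeR adjusted p = 8.79e-07) and that in PC-3 (PC-3 minus CT1258 -1.77, SE 0.31, edgeR adjusted p = 0.000121). The difference between LNCaP and CT1258 was called in all 26 fits that left out 1 sample (-2.97 to -2.52). That between PC-3 and CT1258 lost its call without PC-3 DMSO replicate 3 (-1.37, edgeR adjusted p = 0.00344) and without CT1258 12 h replicate 1 (-1.61, 0.00111).

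Between PC-3 and CT1258, the responses of EREG differed by 0.90 at 24 h (SE 0.29, edgeR adjusted p = 0.0341) and those of ERRFI1 by 0.95 at 12 h (SE 0.35, edgeR adjusted p = 0.043), neither of them called.

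At 24 h the edgeR test called 0 of 6 members in any pair: PC-3 and LNCaP (1.23% of genes), PC-3 and CT1258 (4.79%) and LNCaP and CT1258 (3.44%). In this order, 4, 2 and 1 members had an unadjusted p under 0.05, beside 2758, 3887 and 3885 of 11736 genes. DESeq2 called 1, 0 and 1. The closest was HBEGF, with a difference of 1.31 between PC-3 and LNCaP (SE 0.28, edgeR adjusted p = 0.00391) and of -1.50 between LNCaP and CT1258 (SE 0.34, edgeR adjusted p = 0.00295). Both were called without LNCaP 12 h replicate 2 (1.31, edgeR adjusted p = 0.000237, and -1.50, 0.000868), as were the differences of ERBB2 between PC-3 and LNCaP at 12 h (1.38, edgeR adjusted p = 6.28e-06) and 24 h (1.18, 3.68e-05), of ERBB2 between PC-3 and CT1258 at 12 h (0.88, 0.00032) and of ERBB3 between PC-3 and LNCaP at 12 h (-1.16, 0.000294). With all samples these 4 differences were 0.87, 1.19, 0.90 and -1.07 with edgeR adjusted p of 0.0634, 0.022, 0.0429 and 0.00508. The ERBB3 difference was also called without PC-3 DMSO replicate 3 (-1.47, edgeR adjusted p = 0.000562) and by DESeq2 (-1.12, adjusted p = 6.2e-05).

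EGFR and TGFA, which lack a canine row, could be compared only between the human lines. The 12 h response of EGFR in PC-3 exceeded that in LNCaP by 2.59 (SE 0.45, edgeR adjusted p = 0.00143), which missed the threshold, and the 24 h response by 1.44 (SE 0.44, edgeR adjusted p = 0.0651). For TGFA the differences were 0.70 (SE 0.30, edgeR adjusted p = 0.131) and 0.61 (SE 0.30, edgeR adjusted p = 0.273). PC-3 and LNCaP comparisons share no sample, but the 12 h and 24 h values of a line share their controls.

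Outside the 9 genes, 69 genes of the EGF receptor pathway were listed by role, from general knowledge. In PC-3, 59 were tested, of which 10 rose and 4 fell at 12 h, a share of 23.7% beside the 27.6% of all genes, and 6 rose and 3 fell at 24 h (15.3% beside 19.3%). The median log2 fold change of the list was 0.21 at 12 h beside -0.01 for all genes. By role, 4 of 16 genes of receptor down-regulation rose at 12 h and 0 fell, 3 of 11 of the MAP kinase arm rose and 0 fell, of 12 genes of the PI3 kinase arm 2 rose and 1 fell, of 12 adaptors and early signalling genes 1 rose and 2 fell, of 5 genes of ligand shedding and trafficking 0 rose and 1 fell, and of 3 further ligands 0 were called. The shares called in the first 5 roles were 25%, 27.3%, 25%, 25% and 20%, near or under the 27.6% of all genes. CBL, the ubiquitin ligase that marks active EGFR for degradation, had 46.7 and 28.8 CPM in the PC-3 controls and 113, 109.8 and 113 CPM at 12 h (log2 fold change 1.57, SE 0.16, edgeR adjusted p = 2.83e-06), and 1.14 at 24 h (SE 0.15, 6.09e-05). PTPRJ, a phosphatase that acts on EGFR, rose by 1.26 at 12 h and 1.17 at 24 h (SE 0.20 for both, edgeR adjusted p = 0.000149 and 0.000398). BRAF, a kinase that carries the signal into the MAP kinase cascade, rose by 1.04 at 12 h (SE 0.16, edgeR adjusted p = 0.000114). It has a pseudogene copy, and reads of the pair may not be separated, so this value is uncertain.

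RHBDF1, an inactive rhomboid that takes part in ligand shedding, fell by 1.06 on the log2 scale in PC-3 at 24 h (SE 0.13, edgeR adjusted p = 3.01e-05). In LNCaP, 0 of 59 pathway genes were called by the edgeR test at 12 h or 24 h, beside 0.0076% and 0% of all genes. Of the 59, 11 and 10 had an unadjusted p under 0.05, beside 3950 and 2599 of 13156 genes.

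In CT1258, 46 pathway genes were tested, of which 10 rose and 8 fell at 12 h (39.1% beside 44.3% of all genes) and 6 rose and 7 fell at 24 h (28.3% beside 33.8%). MAPK3, which encodes the kinase ERK1, had 2.53, 1.44 and 2.09 CPM in the controls and 10.5 to 15.2 CPM at 12 h (log2 fold change 2.67, SE 0.20, edgeR adjusted p = 8.36e-08) and 3.03 at 24 h (SE 0.19, 3.43e-08). PIK3CB and PIK3R3, subunits of PI3 kinase, rose by 1.86 and 1.47 at 12 h (SE 0.19 and 0.23, edgeR adjusted p = 1.11e-06 and 6.61e-05), and PIK3CB by 1.12 at 24 h (SE 0.19, 0.000215). AKT1, the kinase activated downstream of PI3 kinase, fell by 1.00 at 12 h (SE 0.10, edgeR adjusted p = 8.42e-07), ARAF by 1.35 (SE 0.11, 1.4e-07) and PIK3CD by 1.08 (SE 0.11, 1.36e-06), and PIK3R2 fell by 1.10 at 24 h (SE 0.12, 4.79e-06). In PC-3 and CT1258 the share of pathway genes called was thus near or under that of all genes.

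**Figure D4:**
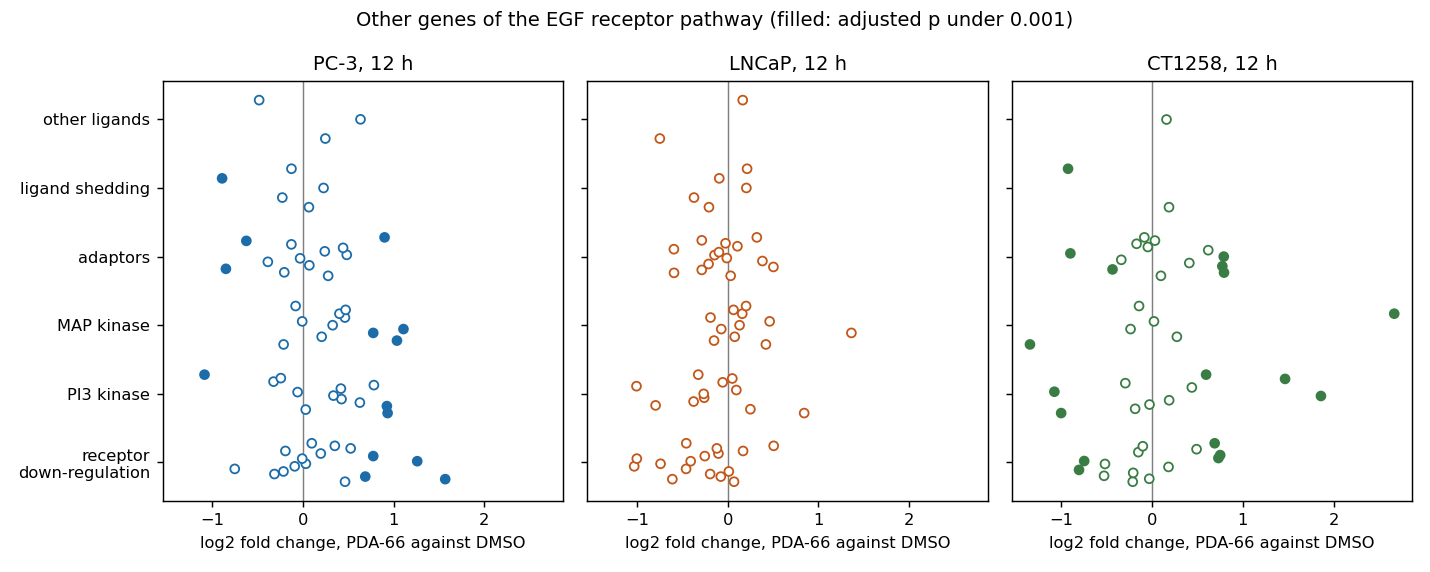
Log2 fold changes after 12 h of PDA-66 for the listed pathway genes that could be tested (59 in PC-3, 59 in LNCaP, 46 in CT1258), by role, with filled points where the edgeR adjusted p was under 0.001. No point is filled in LNCaP, and the right-most point in CT1258 is MAPK3 at 2.67.

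For the 3 members that passed the filter in all 3 tables, the genes with the most similar profile were named, by Pearson's r of log2 CPM over 26 samples after the mean of each line was subtracted, among 8265 genes. These samples share the groups and depth differences of each line, so the values are a description. ERBB2 was most like PLEKHG5 (0.93), CLIP2 (0.90) and GPSM1 (0.89), HBEGF most like AMOTL2 (0.83), CALD1 (0.81) and PHF14 (0.79), and ERRFI1 most like C10orf137 (0.88), AZIN1 (0.86) and AAED1 (0.84). Without LNCaP 12 h replicate 2 the values for ERRFI1 were 0.81, 0.77 and 0.75, and those for ERBB2 and HBEGF lay between 0.79 and 0.92. Among the 3 members themselves r was 0.25 for HBEGF with ERRFI1, 0.07 for ERBB2 with ERRFI1 and -0.00 for ERBB2 with HBEGF.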

How the data were processed

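Single-end 75 bp poly(A) RNA reads were counted by the authors, who deposited raw counts per gene. For the human lines, reads were mapped to hg19 with STAR 2.3.1s and counted on RefSeq genes, and for CT1258 to CanFam3.1 with BWA and counted on protein-coding genes. In 1 PC-3 column the deposited counts carried trailing separators, which were removed. Of 27 samples described, 26 had counts, since the deposited PC-3 counts leave out the control that the study excluded as an outlier. The 9 members and the pathway list were chosen with earlier results of these data known. Each line was fitted over its 3 groups with edgeR 4.0.16 in R 4.3.3 (TMM, filterByExpr, quasi-likelihood test, Benjamini-Hochberg adjustment over all genes), and a gene was called at an adjusted p under 0.001. Response differences were interaction terms in 1 fit of all lines. CPM used TMM effective library sizes. SEs were derived from the F statistic. Named pathway genes were those called that moved by 1 or more on the log2 scale with a mean of 1 CPM or more, and some genes are not reported here. Exact intervals cover counting error only. Scripts were tested on simulated data. Alternatives used DESeq2 1.42.0, limma 3.58.1, other scalings and filters, and fits leaving out 1 sample. Of these, the human tables alone and thinned CT1258 controls, were chosen after seeing the data. Sequences came from RefSeq (GRCh38.p14).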

Additional observations from a re-analysis of the deposited data

Results flagged for a closer look

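In total 3 response differences between lines passed the test of the difference itself, all at 12 h. The response of ERRFI1 was higher in PC-3 than in LNCaP by 1.94 on the log2 scale, a value that was not called in the fit of the human tables alone. The response of HBEGF differed by -1.77 between PC-3 and CT1258 and by -2.78 between LNCaP and CT1258, on counts of 20 to 55 per CT1258 sample at these times. The part of the control depth of CT1258 in these differences was not tested in the shared fit. Single samples within a group of up to 3 were not tested as outliers here.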

How the results depend on the processing

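Of 1722 single-gene values under alternatives, 1616 kept direction and side of the threshold, 45 lost a call, 38 gained one and 23 turned sign. The last were TGFA in LNCaP at 12 h (-0.037 with library size only, -0.0046 with the replicate block, -0.23 to 0.25 leaving out 1 sample) and 24 h (-0.080 to 0.20), ERBB2 in PC-3 between times (-0.025 with voom, -0.066 to 0.15) and between LNCaP and CT1258 at 12 h (-0.10 with library size only, -0.50 to 0.39), AREG in PC-3 at 24 h (-0.071 to 1.06), EREG (-0.56 to 0.27) and HBEGF (-0.067 to 0.54) in PC-3 at 12 h, EREG between PC-3 and CT1258 at 12 h (-0.52 to 0.40) and HBEGF at 24 h (-0.48 to 0.22), none of them called. Leaving out 1 sample, the members called numbered 1 to 4 in PC-3 at 12 h and 1 to 4 at 24 h, 0 to 1 in LNCaP at either time, 1 to 2, 0 to 1 and 0 to 2 in CT1258 at 12 h, 24 h and between times, 0 to 3 and 0 to 2 for PC-3 against LNCaP at 12 h and 24 h, 0 to 2 for PC-3 against CT1258 at 12 h and 0 to 1 for LNCaP against CT1258 at 24 h. At an adjusted p under 0.05 they numbered 7 in PC-3 at 24 h, 1 and 1 in LNCaP, 2 and 2 in CT1258 at 24 h and between times, 3 and 3 for PC-3 against LNCaP, 3 and 1 for PC-3 against CT1258, and 2 and 1 for LNCaP against CT1258. Within the lines the shares of all genes were, in this order, 49.9%, 9.14% and 2.92%, and 62.1% and 19.3%. For the pairs of lines the share at this threshold is not given, so those counts cannot be set against a background. DESeq2 called 1 in CT1258 between times, 2 and 1 for PC-3 against LNCaP and 1 for LNCaP against CT1258 at 24 h. Voom called 3 and 2 in LNCaP, 2 in PC-3 and 2 in CT1258 between times, and the exact test 2 in each of LNCaP at 24 h, PC-3 and CT1258 between times. The shares of all genes called by DESeq2, voom, the exact test and the fits leaving out 1 sample are not given beside these counts. The human tables alone gave 0 at 12 h. The cause was not tested. Replicate numbers did not pair the samples (correlations of same-numbered samples -0.11 to 0.08 in PC-3, -0.42 to 0.19 in LNCaP, -0.19 to 0.15 in CT1258). With the replicate block, 1 member was called in CT1258 at 12 h and 1 in PC-3 at 24 h, and no block was fitted for PC-3 at 12 h, where the numbers were unclear.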
